A study of Rattus norvegicus with 6 samples.

Results

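The mRNA of 10 genes that build and position AMPA-type glutamate receptors was measured by RNA-seq in the rat amygdala after a single dose of ethanol. The genes were taken by symbol from the 38445 genes of the count files, and all 10 were found. They are the 4 pore subunits (Gria1, Gria2, Gria3 and Gria4), 3 transmembrane AMPA receptor regulatory proteins, or TARPs (Cacng2, Cacng3 and Cacng8), and the neuronal pentraxins Nptx1, Nptx2 and Nptxr. Adult male wild-type Sprague Dawley rats were injected intraperitoneally with saline, as controls, or with 1 g/kg of ethanol, and amygdala tissue was collected 1 h later. Each group had 6 rats, and RNA from 2 rats was combined for each library, which gave 3 control and 3 ethanol libraries. Pooling hides the variation between the rats of a pair, and the spread between libraries is that between pools. The question addressed here was whether these transcripts differed between the groups at the time when the study examined acute ethanol.

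AMPA receptors carry most fast excitatory transmission in the brain, and each receptor is a tetramer of Gria subunits. TARPs travel with the receptor to the cell surface, hold it at the postsynaptic density and slow its closing. Neuronal pentraxins sit on the extracellular side, where they bind the receptor's outer domains and gather receptors at synapses. Nptx1 and Nptx2 are secreted, Nptxr is anchored in the membrane, and Nptx2 belongs to the genes whose transcription follows neuronal firing.

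The 250 bases before the start site of Nptx2 and Cacng3 are shown because these were the 2 genes of the 10 with an unadjusted p below 0.05. RefSeq promoter windows in the GRCr8 build were given for 5 of the 10 genes: Nptx2, Cacng2, Cacng3, Cacng8 and Gria4. The Nptx2 sequence is from chr12:15162046-15162295 on the minus strand, and the Cacng3 sequence is from chr1:186632312-186632561 on the plus strand. Capitals mark matches to the motifs searched.
Nptx2: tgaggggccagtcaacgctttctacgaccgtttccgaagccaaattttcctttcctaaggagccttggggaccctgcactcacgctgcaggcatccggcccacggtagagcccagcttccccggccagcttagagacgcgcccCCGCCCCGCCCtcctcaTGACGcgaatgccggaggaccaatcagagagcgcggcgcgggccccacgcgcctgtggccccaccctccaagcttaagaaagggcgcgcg
Cacng3: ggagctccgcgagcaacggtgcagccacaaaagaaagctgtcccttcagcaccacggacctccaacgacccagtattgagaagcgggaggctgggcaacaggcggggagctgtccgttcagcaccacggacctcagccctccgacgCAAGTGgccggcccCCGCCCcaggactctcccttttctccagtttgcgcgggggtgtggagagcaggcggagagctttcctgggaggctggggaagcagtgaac

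Both stretches were rich in G and C, at 66% for Nptx2 and 64.8% for Cacng3, against a median of 51.2% over all 33469 windows. The windows searched were 300 bases long and reached 50 bases past the start site, and both strands were read. The core of the cAMP response element, TGACG, the site of the activity-regulated factor CREB, was found in Nptx2 with its first base at position -90, counted from the start site. The same letters were found in 21.2% of all windows. The full element TGACGTCA, found in 1.83% of windows, had no match in these windows of either gene. The GC box GGGCGG lay on the opposite strand in both genes, at positions -107 and -102 in Nptx2, where the matches overlap, and at -90 in Cacng3, and 33.1% of windows held it. Cacng3 also held an E-box, CANNTG, at position -104, a motif found in 72.1% of windows. The AP-1 motif TGANTCA (7.33% of windows) and the EGR motif GCGTGGGCG (0.544% of windows) were not matched in either. These matches are letters in a window and were not tested as binding sites.

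Assigned reads ranged from 62576504 to 70755739 over the libraries, and 3 counts, taken as the detection floor, corresponded to 0.0422 to 0.0473 CPM (counts per 1000000 assigned reads after scaling between libraries). The 10 genes had between 1871 and 148690 counts in a library, far above this floor. Counting error was not compared with the spread between libraries gene by gene. The libraries of each group differed in cell type markers. Summed markers of pallial glutamatergic neurons, a type that includes the projection neurons of the basolateral amygdala, were 670.4, 1142 and 864 CPM in control 1, 2 and 3 and 1039.7, 1337 and 674 CPM in ethanol 1, 2 and 3. Most of each sum came from 1 of the 8 markers, Slc17a7. It measured 413, 770.3 and 554 CPM in control 1, 2 and 3 and 668, 879 and 425 CPM in ethanol 1, 2 and 3. Tbr1, another of the 8, was lowest in control 2, at 13.7 CPM. Summed oligodendrocyte markers ran largely opposite to the pallial sums, from 3549 CPM in control 2 to 9727 CPM in ethanol 3. Choroid plexus markers summed to 515 to 1114 CPM in the control libraries, 13.3 and 14.4 CPM in ethanol 1 and 2 and 477 CPM in ethanol 3. Of these 8 choroid plexus markers, 7 were tested, 4 were lower after ethanol at an unadjusted p below 0.05 (2.58% of all genes tested were), and the defining factor Otx2 had at most 1 count in every library. Summed markers of striatal-type GABA neurons lay between 318 and 527 CPM, of parvalbumin interneurons between 228 and 283, of astrocytes between 4621 and 6289 and of microglia between 219 and 259. The part of oligodendrocyte and choroid plexus content in the results given here was not tested. In bulk tissue, fewer cells of a type and less RNA per cell cannot be told apart.

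When p-values of edgeR's quasi-likelihood test were adjusted over all genes by the Benjamini-Hochberg method, 0 of the 10 genes had an adjusted p below 0.2, the threshold used here. The same held for the 18141 genes tested, of which 0.0% passed, with 753 genes at an unadjusted p below 0.05. Other tools called 77 genes (edgeR's likelihood ratio test), 75 genes (DESeq2) and 0 genes (limma-voom). At an unadjusted p below 0.05, 2 of the 10 genes, Nptx2 and Cacng3, were higher in the ethanol group, where 1.57% of all genes tested met this criterion. None of the 10 was lower at that level, against 2.58% of all genes tested, and none had all ethanol libraries below all control libraries, against 5.19%. The fitted log2 fold change was positive for 9 of the 10 genes, which vary together across libraries, and for 9539 of all 18141, with a median of 0.05 beside 0.01 over all genes tested.

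**Figure D1:**
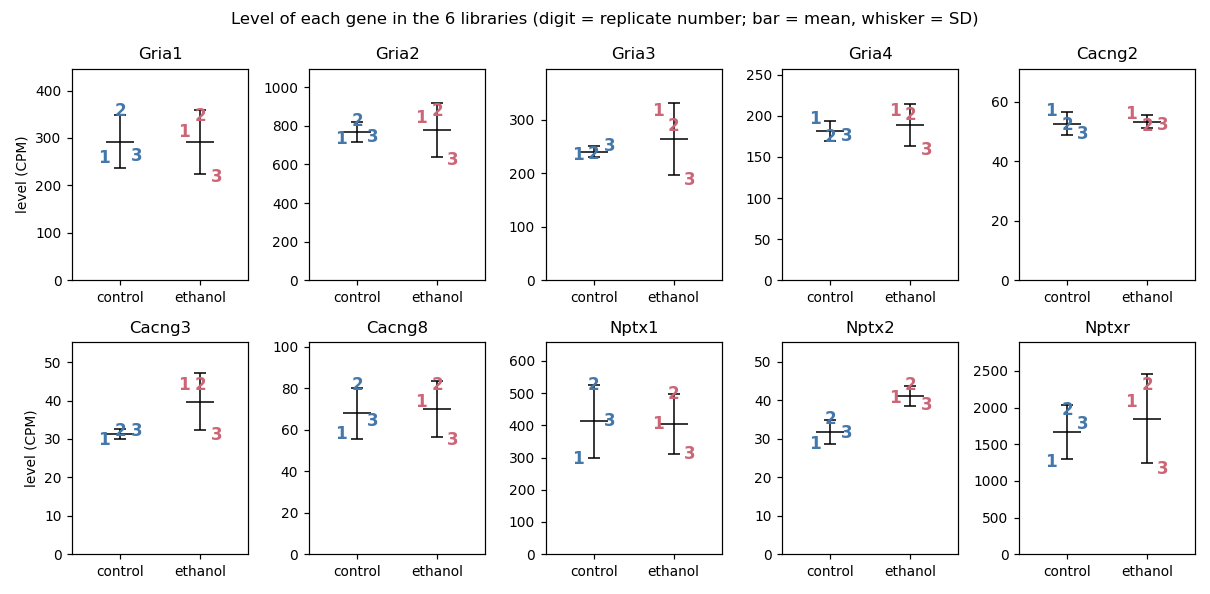
Level in CPM (vertical axes, from 0) of each of the 10 genes in the 3 control and 3 ethanol libraries, where a digit is the replicate number, the horizontal bar the group mean and the whisker the SD. Only for Nptx2 do all ethanol libraries, from 38.8 to 44.0 CPM, lie above all control libraries, from 28.6 to 35.0 CPM.

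Among the neuronal pentraxins, Nptx2 showed the clearest separation of the groups. Nptx2 (chromosome 12, 12014638 to 12025547 of Rnor_6.0, minus strand) measured 28.6, 35.0 and 31.5 CPM in control 1, 2 and 3 and 40.7, 44.0 and 38.8 CPM in ethanol 1, 2 and 3. Every ethanol library was above every control library, which held for 1 of the 10 genes and for 3.65% of all genes tested. The control mean was 31.7 ± 3.18 CPM and the ethanol mean 41.2 ± 2.62 CPM (SD, n = 3 libraries each), a fitted difference of 29.8%. The log2 fold change was 0.38 with an SE of 0.09 and a 95% interval from 0.17 to 0.58. Its unadjusted p was 0.00306 and its adjusted p 0.85 by edgeR's quasi-likelihood test. The study itself reported Nptx2 as higher after ethanol in its RNA-seq at an FDR below 0.2, and by quantitative RT-PCR. It reported the same for Tbr1 and Dusp1, described below. The cause of the different RNA-seq calls was not tested. The exact permutation test over the 6 libraries, 2-sided, gave p = 0.1, the smallest that 20 label swaps allow.

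The direction of the Nptx2 difference did not rest on a single library. Leaving out each library in turn gave log2 fold changes from 0.30 to 0.45. By edgeR's quasi-likelihood test, the unadjusted p ran from 0.0013 to 0.0128. The adjusted p was above 0.2 in each of these fits and lowest, at 0.301, without ethanol 3. By the likelihood ratio test of edgeR and by DESeq2, the adjusted p of Nptx2 was 0.155 and 0.13, below the threshold, and it stayed above it with limma-voom (0.832). Of the 8 pallial markers, Tbr1, a transcription factor of these neurons, also separated the groups, at 15.1, 13.7 and 14.9 CPM in control 1, 2 and 3 and 22.8, 21.0 and 20 CPM in ethanol 1, 2 and 3 (unadjusted p 0.000154, adjusted p 0.818, edgeR), and the other 7 were not at an unadjusted p below 0.05. With the log2 sum of the pallial markers as a covariate, a fit added after the data were seen, the log2 fold change was 0.34, the unadjusted p 0.000444 and the adjusted p 0.218.

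Nptx1, the secreted pentraxin that is not counted among activity-regulated genes, gave no such separation. Nptx1 (chromosome 10, 108682637 to 108691592, minus strand) measured 297, 526 and 414 CPM in control 1, 2 and 3 and 405, 497 and 312 CPM in ethanol 1, 2 and 3. Control 2 was the highest and control 1 the lowest of the 6, so the control range enclosed the ethanol range. The log2 fold change was -0.03 (SE 0.23, 95% interval -0.56 to 0.50, adjusted p 1.0, edgeR).

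Nptxr, the membrane-anchored pentraxin that joins the secreted ones in a complex, varied most between libraries and had the widest interval. Nptxr (chromosome 7, 121011678 to 121029754, minus strand) measured 1259, 1963 and 1772 CPM in control 1, 2 and 3 and 2077, 2311 and 1156 CPM in ethanol 1, 2 and 3. Ethanol 1 and 2 were above all 3 control libraries, while ethanol 3 was below all of them, so the ethanol libraries spanned 2.0-fold. Its log2 fold change was 0.15 (SE 0.27, 95% interval -0.47 to 0.77, adjusted p 1.0, edgeR). Without ethanol 3 it was 0.40, with an unadjusted p of 0.0592 and an adjusted p of 0.575.

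The balance of the secreted pentraxins was compared as the log2 ratio of Nptx2 to Nptx1 in levels per kb of exon. The ratio was -2.0, -2.53 and -2.34 in control 1, 2 and 3 and -1.94, -2.12 and -1.63 in ethanol 1, 2 and 3. The group means were -2.29 ± 0.272 and -1.9 ± 0.247 (SD, n = 3 each), and ethanol 2 lay within the control range. The difference of 0.393 had an exact permutation p of 0.2, which became 1.0 after Benjamini-Hochberg adjustment over the 7 ratios and shares tested.

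**Figure D2:**
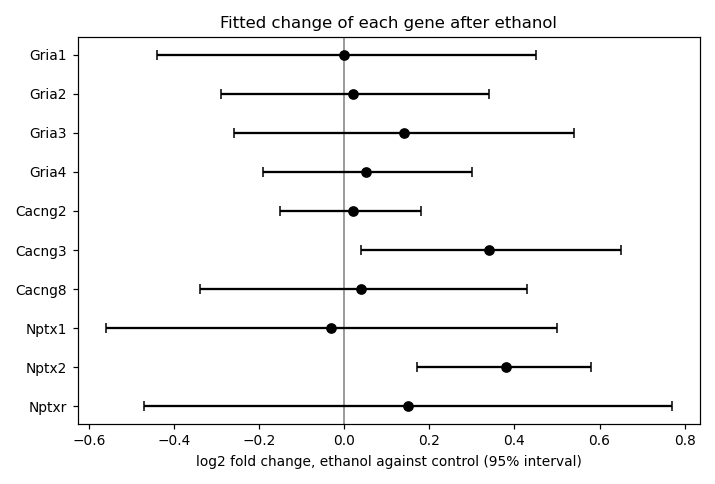
Fitted log2 fold change of each gene, ethanol against control (horizontal axis), with points for the estimate and lines for the 95% interval. The intervals of Nptx2 (0.17 to 0.58) and Cacng3 (0.04 to 0.65) lie above 0, and the other 8 include 0.

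Of the TARPs, Cacng3 was the second gene with an unadjusted p below 0.05, and its difference came from ethanol 1 and 2. Cacng3 (chromosome 1, 192613766 to 192708371, plus strand) measured 29.8, 32.1 and 32.1 CPM in control 1, 2 and 3 and 44.0, 44.1 and 31.1 CPM in ethanol 1, 2 and 3. The control libraries and ethanol 3 lay together, and the groups therefore overlapped. The control mean was 31.3 ± 1.36 CPM and the ethanol mean 39.7 ± 7.47 CPM (SD, n = 3 each), a fitted difference of 26.8%. The log2 fold change was 0.34 (SE 0.13, 95% interval 0.04 to 0.65), with an unadjusted p of 0.0328 and an adjusted p of 1.0 by edgeR's quasi-likelihood test. The exact permutation test over the 6 libraries gave p = 0.3.

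The call for Cacng3 depended on ethanol 3. Without that library the log2 fold change was 0.49, with an unadjusted p of 0.00011 and an adjusted p of 0.0877. In that fit 83 of all genes had an adjusted p below 0.2, beside 0 with all 6 libraries. Leaving out any of the other 5 libraries gave an unadjusted p from 0.0587 to 0.112. Ethanol 1 and 2 were also the libraries with 13.3 and 14.4 CPM of choroid plexus markers, and ethanol 3 the one with 477 CPM. The part of cell type markers in the Cacng3 difference was not tested beyond the fit with the pallial covariate, which gave a log2 fold change of 0.26 with an unadjusted p of 0.0175 and an adjusted p of 0.542.

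**Figure D3:**
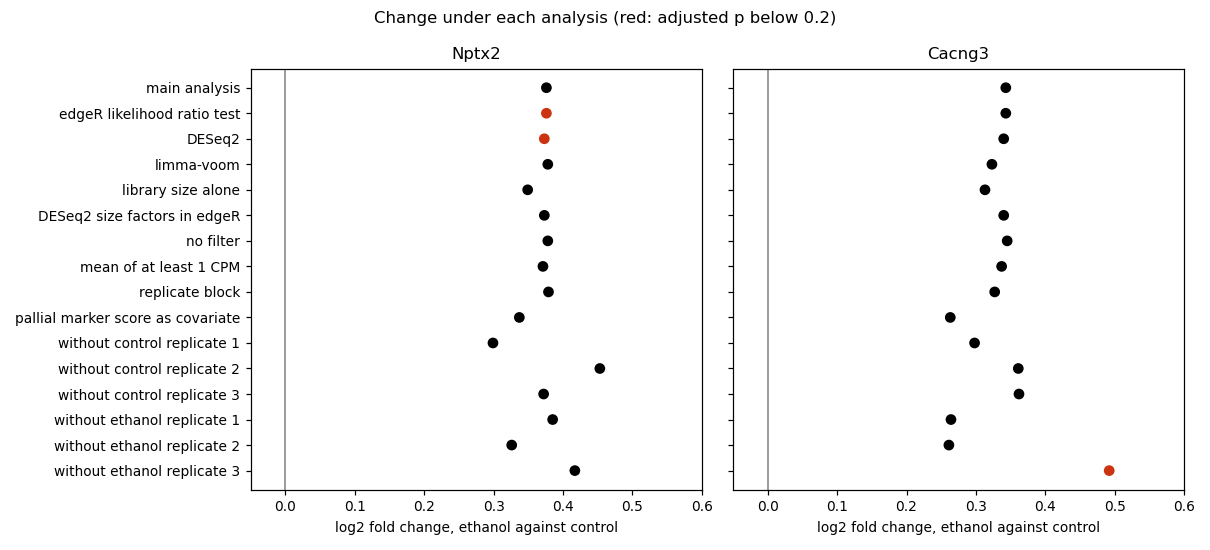
Log2 fold change of Nptx2 and of Cacng3, ethanol against control (horizontal axes), under the main analysis and each alternative (rows), with red points where the adjusted p is below 0.2. Nptx2 stays between 0.30 and 0.45 and is red for 2 alternatives, while Cacng3 lies between 0.26 and 0.49 and is red only without ethanol replicate 3.

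Cacng2, or stargazin, the first TARP to be described, had the smallest range of the 10 genes over all 6 libraries, 0.21 on the log2 scale, although 4 genes spread less within the control group (Gria2, Gria3, Gria4 and Cacng3). Cacng2 (chromosome 7, 119228112 to 119353332, minus strand) measured 56.9, 52.0 and 49.1 CPM in control 1, 2 and 3 and 55.7, 51.9 and 52.2 CPM in ethanol 1, 2 and 3. The ethanol values lay inside the control range, the highest library exceeded the lowest of its group by 1.16-fold in the control and 1.07-fold in the ethanol group, and the log2 fold change was 0.02 (SE 0.07, 95% interval -0.15 to 0.18, adjusted p 1.0, edgeR).

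Cacng8, a TARP abundant in hippocampal and cortical neurons, varied between the libraries of each group. Cacng8 (chromosome 1, 64330106 to 64350338, minus strand) measured 57.9, 81.6 and 64.1 CPM in control 1, 2 and 3 and 73.3, 81.5 and 55.2 CPM in ethanol 1, 2 and 3. The replicates numbered 2 were highest in both groups and the log2 fold change was 0.04 (SE 0.17, 95% interval -0.34 to 0.43, adjusted p 1.0, edgeR). Exons of Cacng8 share 91 bases with Mir935 on the same strand, and reads lying over both genes were left out of the counts. The log2 ratio of Cacng8 to Cacng2 in levels per kb was 1.62 ± 0.314 in the control and 1.65 ± 0.285 in the ethanol group (SD, n = 3 each), a difference of 0.0222 with an exact permutation p of 0.7, adjusted to 1.0.

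The pore subunits showed no difference between the groups past the spread of the libraries. Gria1, the subunit whose delivery to synapses follows activity (chromosome 10, 42441723 to 42760200, plus strand), measured 258, 357 and 261 CPM in control 1, 2 and 3 and 313, 347 and 217 CPM in ethanol 1, 2 and 3. The highest library was a control and the lowest an ethanol library. The fitted log2 fold change was 0.00 (SE 0.19, 95% interval -0.44 to 0.45, adjusted p 1.0, edgeR), and its sign differed between scalings.

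Gria2, whose edited form keeps calcium out of the channel, was the most abundant subunit per length. Gria2 (chromosome 2, 179584302 to 179704629, minus strand) measured 731, 826 and 742 CPM in control 1, 2 and 3 and 839, 877 and 621 CPM in ethanol 1, 2 and 3. As for Nptxr, ethanol 1 and 2 were above and ethanol 3 below all control libraries. The log2 fold change was 0.02 (SE 0.14, 95% interval -0.29 to 0.34, adjusted p 1.0, edgeR), which turned to -0.01 when library size alone was used for scaling. Its exons share 29 bases with Mir2985.

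Gria3 (chromosome X, 127561843 to 127829763, plus strand) measured 234, 236 and 252 CPM in control 1, 2 and 3 and 317, 289 and 188 CPM in ethanol 1, 2 and 3. The control libraries differed by 1.08-fold and the ethanol libraries by 1.68-fold, again with ethanol 1 and 2 above and ethanol 3 below the controls. Its log2 fold change was 0.14 (SE 0.17, 95% interval -0.26 to 0.54, adjusted p 1.0, edgeR). Without ethanol 3 it was 0.33, with an unadjusted p of 0.00173 and an adjusted p of 0.267. Gria4, a subunit prominent in fast-spiking interneurons (chromosome 8, 1548145 to 2045874, minus strand), measured 196, 174 and 175 CPM in control 1, 2 and 3 and 206, 201 and 159 CPM in ethanol 1, 2 and 3. It showed the same arrangement at a smaller size, with a log2 fold change of 0.05 (SE 0.11, 95% interval -0.19 to 0.30, adjusted p 1.0, edgeR).

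The make-up of the subunit pool was compared as the share of each Gria gene in the summed level per kb of exon. In the control and ethanol groups, Gria1 made up 35.1 ± 3.52% and 34.2 ± 1.51%, and Gria2 38.7 ± 0.751% and 38.5 ± 1.08% (SD, n = 3 each). Gria3 made up 15 ± 1.56% and 15.9 ± 1.41%, and Gria4 11.2 ± 1.49% and 11.4 ± 0.902%. The size of these shares depends on the annotated exons, which span 2866 bases for Gria1 beside 6860 for Gria2, 5574 for Gria3 and 5652 for Gria4. Before division by length, the control means of Gria1 and Gria2 were 292 and 766 CPM. No share differed by more than 0.879 percentage points, and the exact permutation p lay between 0.5 and 1.0, with adjusted values of 1.0. The log2 ratio of Gria1 to Gria2 was -0.148 ± 0.169 in the control and -0.168 ± 0.0897 in the ethanol group, with an exact permutation p of 0.8, adjusted to 1.0. The Gria2 share lay between 37.7% and 39.7% in all 6 libraries.

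Levels can be compared between genes only per length, and the order of mean levels over the 6 libraries, in CPM per kb of exon, began with Nptxr at 362. It was followed by Gria2 at 113, Gria1 at 102, Nptx1 at 82.6, Cacng8 at 54.4, Gria3 at 45.3, Cacng3 at 37.5, Gria4 at 32.8, Nptx2 at 19.1 and Cacng2 at 17.3. Only 2 neighbours in this order had ranges that did not overlap, Nptxr above Gria2 and Gria4 above Nptx2. The order of neighbours held in 6 of 6 libraries except for Gria2 over Gria1, Cacng3 over Gria4 and Nptx2 over Cacng2, which held in 5. The annotated exons of Cacng3 (948 bases), Cacng8 (1266 bases) and Gria1 (2866 bases) are short beside those of Gria2 (6860 bases). Levels per kb therefore depend on how complete each gene model is.

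**Figure D4:**
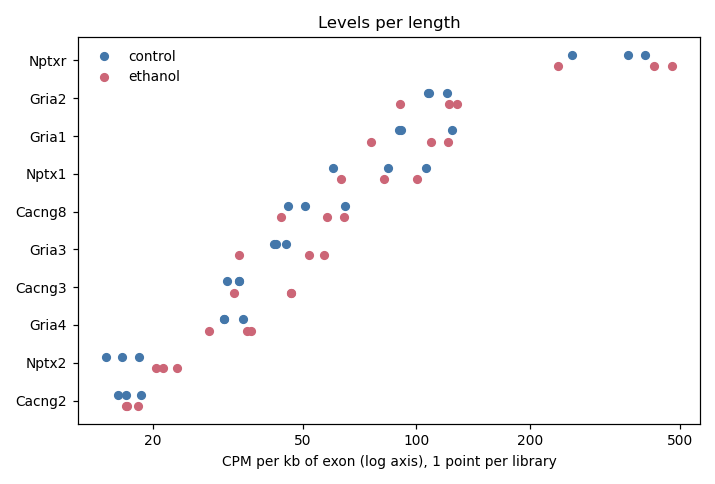
Level in CPM per kb of exon (horizontal log axis) of each gene, with 1 point per library, control in blue and ethanol in red. Nptxr lies from 238 to 476, above all other genes, and Nptx2 (15 to 23.1) overlaps Cacng2 (16.1 to 18.6) at the bottom.

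Most of the 10 genes varied together across libraries, within as well as between groups. Control 1 held the lowest control value for 8 of the 10 genes, and ethanol 3 the lowest ethanol value for 9 of 10. Control 2 held the highest control value for 6 genes and ethanol 2 the highest ethanol value for 7. The median of the 10 genes, as the log2 difference from the control mean, was -0.11, 0.13 and -0.02 in control 1, 2 and 3 and 0.16, 0.27 and -0.29 in ethanol 1, 2 and 3. The 3 lowest and 3 highest libraries on this scale included both groups. The pallial marker sums given earlier were also lowest in control 1 and ethanol 3 and highest in control 2 and ethanol 2, and the oligodendrocyte sums were highest in control 1 and ethanol 3. The part of the oligodendrocyte markers in the levels of the 10 genes was not tested. With the pallial score as a covariate, fitted log2 fold changes were negative for Nptxr (-0.05), Gria1 (-0.12), Gria2 (-0.06), Cacng8 (-0.06) and Nptx1 (-0.15). They were positive for Nptx2 (0.34), Cacng3 (0.26), Gria3 (0.04), Gria4 (0.02) and Cacng2 (0.03).

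**Figure D5:**
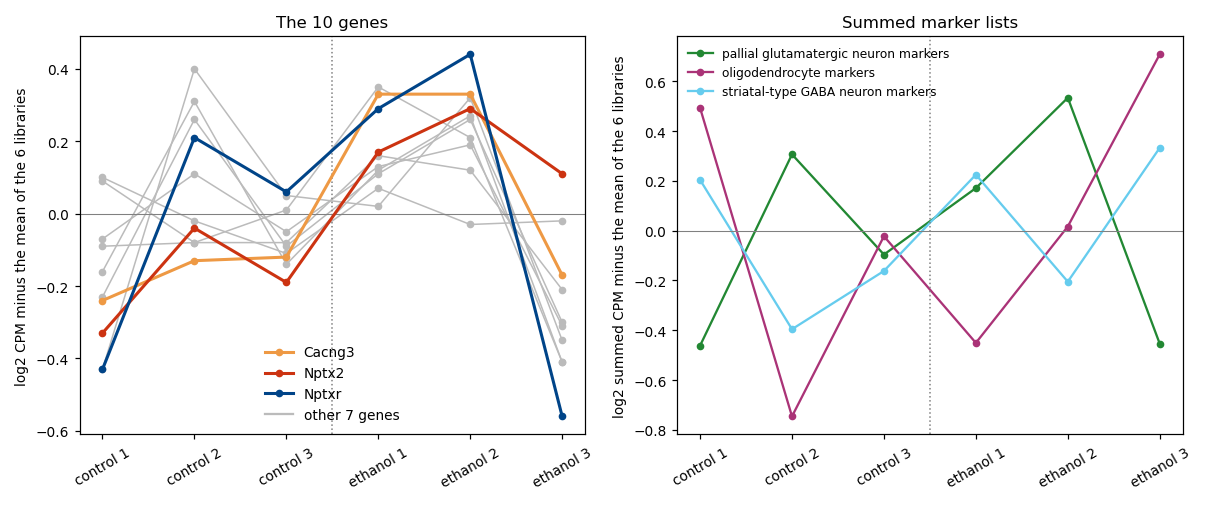
Log2 CPM of each of the 10 genes (left) and of 3 summed marker lists (right), minus the mean of the 6 libraries, for each library (horizontal axis), with lines joining the points of a gene or list only to guide the eye. Nptxr spans 1.0 from ethanol 3 to ethanol 2, while Nptx2 stays above 0 in all 3 ethanol libraries and below 0 in all 3 control libraries.

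Other genes of AMPA receptor complexes were compared as lists, which are too short for a count of 0 to show that no gene differed. Of all genes tested, 1.57% were higher and 2.58% lower after ethanol at an unadjusted p below 0.05. Of 15 other auxiliary subunits and assembly factors, 0 were at that level in either direction and the median log2 fold change was 0.07. Their values ran from -0.08 to 0.34, and 12 of the 15 were positive. In 1 of the 15 the lowest ethanol value exceeded the highest control value, beside 3.65% of all genes tested. The most abundant were Cnih2, a cornichon that slows receptor closing, at 218 ± 21.0 CPM in controls and 228 ± 15.2 CPM, and Shisa7 at 186 ± 16.8 and 191 ± 20.6 CPM (SD, n = 3 each). Of 10 anchoring and trafficking partners, 0 were at an unadjusted p below 0.05, with a median of 0.03 and values from -0.05 to 0.31. Dlg4, the scaffold PSD-95, measured 941 ± 15.3 and 968 ± 55.3 CPM, and Nsf, an ATPase that binds Gria2, 649 ± 64.3 and 719 ± 106 CPM. The editing and splicing list of 4 genes also had 0 at that level and a median of 0.05, with Adarb1, the enzyme that edits Gria2, at 145 ± 3.96 and 153 ± 16.3 CPM, and Adar at 234 ± 6.72 and 239 ± 8.32 CPM.

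Of 8 secreted or surface partners of pentraxins and AMPA receptors, 1 (Olfm2) was higher in the ethanol group at an unadjusted p below 0.05. Of all genes tested, 1.57% met this criterion. Olfm2, an olfactomedin found in AMPA receptor complexes, measured 82.5, 82.2 and 75.2 CPM in control 1, 2 and 3 and 95.6, 83.8 and 90.2 CPM in ethanol 1, 2 and 3. Its ethanol libraries were all above its control libraries, as for 3.65% of all genes tested, but control 1 and ethanol 2 were close. The log2 fold change was 0.17 (SE 0.07) with an unadjusted p of 0.0411 and an adjusted p of 1.0 by edgeR. The more abundant Olfm1 varied with the libraries, at 737, 1037 and 969 CPM in control 1, 2 and 3 and 1038, 1237 and 759.6 CPM in ethanol 1, 2 and 3.

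The activity-regulated genes, the class to which Nptx2 belongs, had a median fitted log2 fold change of 0.26, with 12 of the 13 positive beside 9539 of the 18141 genes tested. At an unadjusted p below 0.05, 3 of the 13 were higher in the ethanol group and 0 lower, beside 1.57% and 2.58% of all genes tested, and 0 had an adjusted p below 0.2. Dusp1, a phosphatase that switches off MAP kinases, measured 21.6, 19.8 and 18.6 CPM in control 1, 2 and 3 and 26.1, 28.7 and 25.2 CPM in ethanol 1, 2 and 3. Its groups did not overlap, with a log2 fold change of 0.42 (SE 0.08), an unadjusted p of 0.00119 and an adjusted p of 0.818 by edgeR. Egr1, an immediate-early transcription factor, measured 51.0 ± 5.68 and 64.4 ± 5.12 CPM, without overlap, and Junb, a partner of Fos, 39.3 ± 3.32 and 49.1 ± 7.14 CPM, with overlap. Their unadjusted p were 0.00834 and 0.0238 and their adjusted p 1.0 (edgeR). The more abundant Homer1, a postsynaptic scaffold gene, and Egr3 measured 82.0 and 68.9 CPM in ethanol 3, each below its control range, and were above that range in ethanol 1 and 2.

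Genes whose pattern over the 6 libraries was most like that of Nptx2 were sought among 14760 genes with a mean of at least 1 CPM. Likeness was the mean absolute difference in log2 CPM after each gene was centred on its mean. The nearest were Usp2, a deubiquitinase, with a difference of 0.0489, NCBI gene 108349107 (0.0495), Tnfaip2 (0.0511), C1qtnf4 (0.0517) and Car7, a carbonic anhydrase (0.0543). The nearest of the other 9 genes was Cacng3, at 0.121 and rank 282.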

How the data were processed

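RNA-seq was carried out on 6 libraries, 3 control and 3 ethanol. The authors deposited raw counts per gene for each library, without normalization or filter. The submitters' processing notes name STAR 2.7.0f and Subread 1.6.3 (featureCounts), and per the file headers reads were counted reverse-stranded over the exons of each NCBI gene of Rnor_6.0, leaving out multimapping reads and those shared by several genes. Symbols from a RefSeq gene table matched 29322 of the 38445 identifiers.

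Counts were analysed in R 4.3.3 with edgeR 4.0.16. The 18141 genes that passed filterByExpr (minimum 10 counts, 15 in total), all 10 genes among them, were scaled by TMM (factors 0.976 to 1.01) and compared by the quasi-likelihood F test, adjusted over all genes, at a threshold of 0.2. The SE is the absolute log2 fold change divided by the square root of F. Log2 CPM carried a prior count of 2. Ratios and shares were compared by 2-sided exact permutation over 20 label swaps. Alternatives used DESeq2 1.42.0, limma 3.58.1, other scalings and filters, and fewer libraries. Text values are all 10 genes and, from each other list, genes at an unadjusted p below 0.05 and the 2 with the highest mean CPM. Of the marker lists, those that bear on the 10 genes are given by their sums. The 10 genes and all lists were chosen with earlier results of these data known. Depth was 62576504 to 70755739 assigned reads, and floors cover counting error only, since PCR copies of a molecule could not be recognized. The quantitative RT-PCR, chromatin and behavioral experiments of the study were not analysed here.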

Additional observations from a re-analysis of the deposited data

How the results depend on the processing

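With 3 libraries per group, the 95% intervals of 6 of the other 9 genes (all but Gria2, Gria4 and Cacng2) included the log2 fold change of Nptx2, so a difference of that size could be missed. The part of sequencing depth in these intervals was not tested. The cause of the changes listed here was not tested. Genes with an adjusted p below 0.2 numbered 0 in the main analysis. They numbered 77 by the likelihood ratio test, 75 by DESeq2 and 19 with the pallial covariate. Leaving out a library gave 0 to 83, with the 83 found without ethanol 3. Of the 10 genes, 1 (Nptx2) was called by the likelihood ratio test and by DESeq2. When a library was left out, 0 to 1 were called (Cacng3 without ethanol 3). Without ethanol 3, 3 of the 10 were at an unadjusted p below 0.05 (Gria3, Cacng3 and Nptx2). Leaving out any other library gave 1 (Nptx2). The share of all genes at that level was not computed for these fits.

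Directions turned only for differences that were not called. The log2 fold change of Gria1 was -0.00162 with DESeq2, -0.00682 with limma-voom, -0.0289 with library size alone, -0.00169 with DESeq2 size factors in edgeR, -0.00483 for genes with a mean of at least 1 CPM, and -0.125 with the pallial covariate. With library size alone, which moved the median of all genes to -0.02, Gria2 was at -0.00516 and Cacng2 at -0.00989. With the pallial covariate Gria2 was at -0.0588, Cacng8 at -0.0611 and Nptxr at -0.0471. When a library was left out, log2 fold changes ranged from -0.14 to 0.177 for Gria1, -0.069 to 0.164 for Gria2, -0.0116 to 0.333 for Gria3, -0.0126 to 0.164 for Gria4, -0.0307 to 0.0675 for Cacng2, -0.0795 to 0.199 for Cacng8, -0.226 to 0.188 for Nptx1 and -0.0416 to 0.399 for Nptxr. Likewise, the difference in log2 ratio ranged from -0.0701 to 0.0769 for Gria1 to Gria2 and from -0.142 to 0.171 for Cacng8 to Cacng2, and that in share from -1.86 to 1.22 percentage points for Gria1, -0.862 to 0.154 for Gria2 and -0.578 to 0.915 for Gria4.

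Same-numbered control and ethanol libraries came from different rats, and the numbers were not taken to pair them. Over 14241 genes, deviations of same-numbered libraries from the group means correlated by 0.0264, 0.388 and 0.211. For unlike-numbered libraries the correlations ranged from -0.427 to 0.305. With the replicate number as a block, 0 genes had an adjusted p below 0.2, Nptx2 had a log2 fold change of 0.379 (adjusted p 0.634) and Cacng3 of 0.327 (adjusted p 0.843), by edgeR, and Gria1 was at -0.0104. The block changed no other call or direction. Over all results and alternatives, 212 values kept their direction and their side of the threshold or stayed within the spread, 3 passed the threshold, 13 counts moved and 38 turned direction. For the ratios and shares, the permutation test could not give a p below 0.05 with so few libraries. Only the direction of those values could change.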
